A study of Mus musculus with 22 samples.

Results

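The genes described here are 10 transcripts known from fat cells, measured in ulnae of mice: Adipoq, Plin1, Lep, Fabp4, Cfd, Retn, Pparg, Cidec, Lpl and Car3. They were chosen by name as adipocyte genes, and each was found by its Ensembl identifier, 10 of 25471 genes in the tables. Lpl and Car3 are also made by muscle, and here they followed muscle genes across libraries, as described further on. All 10 passed the filter on low counts, as did 18793 genes in all. Total RNA came from the middle part of the ulna shaft of 11 mice, the right one mechanically loaded and the left one not, which gave 22 libraries of 21999891 to 42833729 counts. The groups were the loaded and non-loaded ulnae of 4 mice with a conditional knockout (CKO) of Tlr4, a receptor for bacterial lipopolysaccharide, and the loaded and non-loaded ulnae of 7 wildtype (WT) mice. The series title places the Tlr4 under study in osteoblasts, the bone-forming cells. The Cre driver, strain, age, loading regime and time of harvest are not given in the labels used here.

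Adipocytes store triglyceride in a lipid droplet, release fatty acids from it on demand, and secrete hormones such as adiponectin and leptin. In bone they lie in the marrow, where they arise from the same stromal lineage as osteoblasts and increase with age, and fat also lies between the muscles and along the periosteum around the shaft. Their differentiation is driven by the nuclear receptor encoded by Pparg together with C/EBP transcription factors, and most of the genes below are targets of one or both in cultured fat cells.

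Promoter sequences are shown because the members that moved together across libraries, described further on, can be compared for short motifs of these factor families. RefSeq promoter entries (build GRCm38.p6) matched 7 of the 10 genes, with 10 entries; Fabp4, Lpl and Car3 had none in the table used. The 250 bases before each start were searched on both strands for TTGCNNAA, a C/EBP-type site that also takes in the palindrome TTGCGCAA, for AGGTCA, a nuclear receptor element, for TATAAA and for CCAAT. Of 32851 mouse promoters, 9.56% held TTGCNNAA, 0.164% TTGCGCAA, 14% AGGTCA, 12.4% TATAAA and 33.8% CCAAT. The last 120 bases before the start are printed for 4 members whose levels went together across libraries, with TTGCNNAA matches in capitals. The 4 are not the closest set. Cidec, not printed, had Pearson's r of 0.957 to Plin1 and 0.966 to Cfd over 22 libraries, against 0.745 between Lep and Adipoq.
Plin1, chr7:79732777-79732896, minus strand: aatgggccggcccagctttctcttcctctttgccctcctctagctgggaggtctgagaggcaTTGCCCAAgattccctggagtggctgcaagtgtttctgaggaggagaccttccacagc
Lep, chr6:29060101-29060220, plus strand: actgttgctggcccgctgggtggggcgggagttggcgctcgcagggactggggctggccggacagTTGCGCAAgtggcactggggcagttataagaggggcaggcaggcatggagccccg
Adipoq, chr16:23146416-23146535, plus strand: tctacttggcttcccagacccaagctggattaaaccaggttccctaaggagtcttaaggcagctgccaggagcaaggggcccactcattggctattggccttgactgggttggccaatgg
Cfd, chr10:79890733-79890852, plus strand: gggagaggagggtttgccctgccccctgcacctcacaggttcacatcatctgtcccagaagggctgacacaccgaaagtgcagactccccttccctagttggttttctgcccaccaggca
Lep held the palindrome with its first base 55 bases before the start. Plin1 held 2 matches to TTGCNNAA, at 187 and 58 bases before the start, of which the nearer is printed. Adipoq held none of these but 3 CCAAT matches within 34 bases of the start, and Cfd held no match to any of the motifs. Retn likewise held none. Cidec had 2 promoters, not printed here. The first held no match, and the second held a TTGCNNAA at 198 bases before the start. The third Pparg promoter in the table, printed because it carries both a CCAAT and a C/EBP-type match close to the start, follows.
Pparg, chr6:115421946-115422065, plus strand: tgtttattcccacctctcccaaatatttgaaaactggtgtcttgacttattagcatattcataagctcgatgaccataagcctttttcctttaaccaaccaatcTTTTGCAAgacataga
Its TTGCNNAA match lay on the minus strand, 16 bases before the start, next to a CCAAT at 22 bases, and another TTGCNNAA lay at 215 bases. The third promoter also held a CCAAT at 144 bases. The first and second Pparg promoters each held 1 AGGTCA. On its minus strand the second also held TATAAA at 29 bases and CCAAT at 83 bases. A match describes letters in this window, and binding there was not measured.

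Before the results, 2 libraries went against the others of their genotype label in the level of Ltbp2. Whether they were mislabelled was not tested, and the labels were kept. Ltbp2, the gene of a matrix protein found on microfibrils, lay at 205 to 344 CPM in 7 of the 8 CKO libraries and at 26.5 to 73.5 CPM in 13 of the 14 WT libraries (CPM, counts scaled to library size by TMM). The library labelled CKO loaded 688 had 38.4 CPM and the library labelled WT loaded 686 had 380 CPM. Tlr4 itself had 24.9 to 33.8 CPM in CKO and 24.9 to 42.2 CPM in WT libraries, which overlap; whole-gene counts do not show whether an exon was lost or whether a single cell type lost the receptor. The amount of other tissue also varied. Skeletal muscle genes took 3% to 17% of counts and the muscle score, the mean log2 CPM of 20 muscle genes, ran from 8.87 in CKO non-loaded 691 and 9.93 in WT non-loaded 699 to 12.21 in CKO loaded 698. The marrow score, the mean over 44 red cell, neutrophil and B cell genes, was highest in the same 2 libraries, at 7.07 in CKO non-loaded 691 and 7.08 in WT non-loaded 699. In bulk tissue, fewer cells of a type and less RNA per cell cannot be told apart.

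The droplet genes were detected in all libraries. Plin1 encodes perilipin 1, which coats the lipid droplet and controls access of lipases to it. It had 18, 16.8, 15.6 and 16.6 CPM in the CKO loaded ulnae of mice 688, 691, 693 and 698, against 17.7, 13, 16.9 and 44.1 CPM in the non-loaded ulnae of the same mice. In WT mice it ran from 8.24 to 35.7 CPM (median 21.5) in loaded ulnae, against 1.32 to 46.8 CPM (median 26.4) in non-loaded ulnae. The 4 CKO loaded values were close together, and the widest span, from the lowest to the highest of 22 libraries, lay among WT non-loaded ulnae. Cidec, which encodes a protein that fuses droplets, had 13.1 to 19.3 CPM in CKO loaded and 11.5 to 36 CPM in CKO non-loaded ulnae. In WT mice it had 11.7 to 27 CPM (median 22.2) in loaded and 0.94 to 33.4 CPM (median 26.9) in non-loaded ulnae.

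Among the lipid-handling genes, Fabp4 encodes the fatty acid binding protein of the fat cell cytosol and, beside Pparg, varied least among the members. It had 62.8 to 78.9 CPM in CKO loaded, 54.6 to 113 in CKO non-loaded, 51.3 to 98.4 (median 82.1) in WT loaded and 50.3 to 123 CPM (median 87.8) in WT non-loaded ulnae. Lpl encodes lipoprotein lipase, which frees fatty acids from circulating triglyceride and is also made by muscle. It had 281, 469, 346 and 511 CPM in the CKO loaded ulnae of mice 688, 691, 693 and 698, against 392, 137, 330 and 281 CPM in their non-loaded ulnae. In WT mice Lpl had 203 to 384 CPM (median 303) in loaded and 146 to 424 CPM (median 322) in non-loaded ulnae. The lowest Lpl value of all 22 was that of CKO non-loaded 691. Pparg, the regulator, had 7.86, 7.61, 7.88 and 5.67 CPM in the same CKO loaded ulnae, against 5.98, 11.6, 7.34 and 11.6 CPM in the non-loaded ones. In WT mice it had 7.34 to 12.4 CPM (median 8.97) in loaded and 7.04 to 11.3 CPM (median 9.46) in non-loaded ulnae. Pparg overlaps Gm44079 on the other strand, and whether counting used strand is not given in the sources used here.

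Of the secreted products, Adipoq encodes adiponectin. It had 29.7, 26.9, 27.5 and 18.7 CPM in the CKO loaded ulnae of mice 688, 691, 693 and 698, against 28.7, 33.5, 27.1 and 55.1 CPM in their non-loaded ulnae. In WT mice it had 17.4 to 45.4 CPM (median 32.4) in loaded and 16.9 to 67.7 CPM (median 33.5) in non-loaded ulnae. The groups overlapped throughout, and the 2 highest values were the non-loaded ulnae of CKO mouse 698 and WT mouse 685. Cfd encodes the complement protease adipsin and had 59.9 to 88.7 CPM in CKO loaded and 55.6 to 242 CPM in CKO non-loaded ulnae. In WT mice Cfd had 44 to 144 CPM (median 114) in loaded and 5.43 to 247 CPM (median 106) in non-loaded ulnae. Lep, the satiety hormone leptin, was the least abundant, at 0.519 to 2.52 CPM in CKO loaded, 0.48 to 8.07 in CKO non-loaded, 0.346 to 4.42 (median 2.2) in WT loaded and 0.0696 to 6.29 CPM (median 2.9) in WT non-loaded ulnae. Retn, which encodes the secreted protein resistin, had 1.56 to 5.32 CPM in CKO loaded, 1 to 16.3 in CKO non-loaded, 1.73 to 6.92 (median 6.14) in WT loaded and 0.487 to 10.2 CPM (median 6.95) in WT non-loaded ulnae. Car3 encodes carbonic anhydrase 3, abundant in both fat and slow muscle fibres. It had 1240, 1230, 1160 and 1860 CPM in the CKO loaded ulnae of mice 688, 691, 693 and 698, against 1560, 201, 971 and 1650 CPM in their non-loaded ulnae, and 649 to 1240 CPM (median 889) in WT loaded against 311 to 1690 CPM (median 1240) in WT non-loaded ulnae.

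Levels per kilobase of transcript set the genes apart. Mean CPM per kb over 22 libraries was 671 for Car3, 117 for Cfd, 88.8 for Fabp4 and 77.7 for Lpl. It was 25.5 for Adipoq, 11.5 for Cidec and 7.69 for Plin1, and 4.8 for Retn, 4.19 for Pparg and 0.788 for Lep. Spread ran differently. The SD of log2 CPM over 22 libraries was 1.47 for Lep, 1.16 for Retn, 1.1 for Cfd, 1.05 for Cidec and 1.02 for Plin1. It was 0.77 for Car3, 0.49 for Adipoq, 0.47 for Lpl, 0.33 for Fabp4 and 0.3 for Pparg. WT non-loaded 699 was the lowest library for the genes from Lep to Plin1 and for Adipoq, and no SD was calculated without it. Among WT loaded libraries alone, the SD was 1.4 for Lep, 0.83 for Retn, 0.6 for Cfd, 0.5 for Cidec and 0.71 for Plin1. It was 0.46 for Adipoq there.

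**Figure D1:**
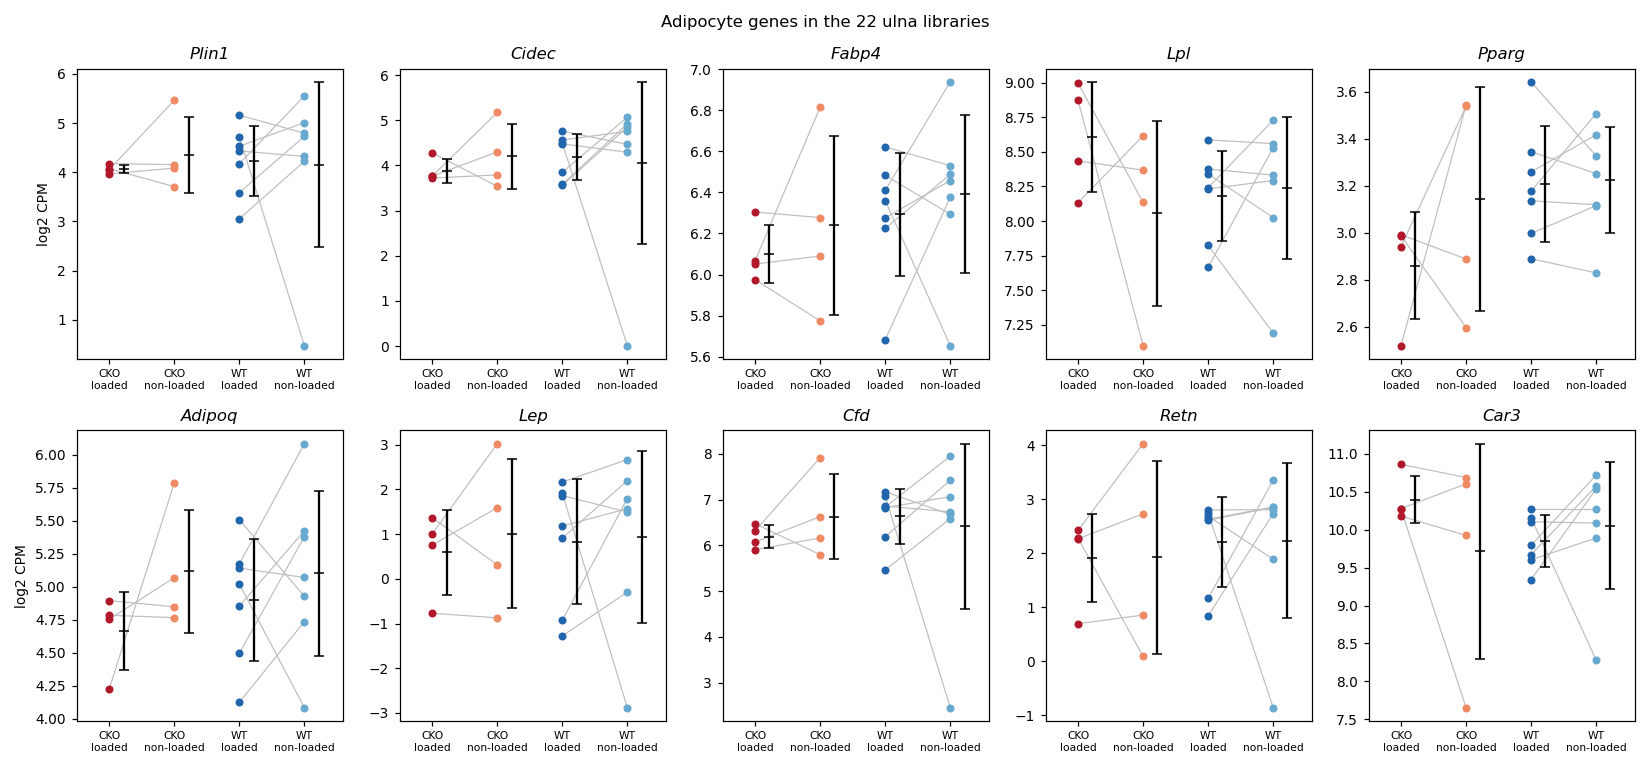
Log2 CPM of each adipocyte gene (vertical axis) in the 22 libraries, by group; dots are libraries, grey lines join the limbs of a mouse, and black marks with bars give the mean and SD of 4 CKO or 7 WT libraries. WT non-loaded 699 stands below the rest for Plin1, Cidec, Cfd and Lep, and CKO non-loaded 691 for Car3.

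The first comparison asked whether loading changed these genes in either genotype. None of the 10 was called in CKO mice or in WT mice by edgeR's quasi-likelihood test (adjusted p under 0.05, Benjamini-Hochberg over 18793 genes), and 0 had an unadjusted p under 0.05; DESeq2 also called 0. Few genes of any kind were called: 0.016% for loading in CKO and 0.00532% in WT, and 0 of 10 is near that share. In CKO mice 8 of 10 log2 fold changes lay below 0, with a median of -0.45, against -0.01 over all genes. Lpl at 0.49 ± 0.30 (SE, adjusted p = 0.739) and Car3 at 0.33 ± 0.46 (adjusted p = 0.807) were the 2 above 0. With the muscle and marrow scores as covariates Lpl stood at 0.10 ± 0.13 and Car3 at -0.16 ± 0.19. Adipoq stood at -0.49 ± 0.33 (adjusted p = 0.739) and Lep at -0.93 ± 0.89 (adjusted p = 0.741). In WT mice all 10 lay below 0 in the fit, from -0.33 for Lep and Car3 to -0.01 for Pparg, with a median of -0.24, and every adjusted p was 1. Adipoq stood at -0.25 ± 0.25.

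Per mouse the limb differences did not share a direction. They rest on the pairing by label, which was not tested for mice 686 and 688, whose limbs went apart in Ltbp2. Adipoq was lower in the loaded ulna of 2 of 4 CKO and 4 of 7 WT mice, and its difference ran from -1.56 to 0.05 in CKO and from -0.91 to 0.93 in WT mice. Plin1 was lower in the loaded ulna of 2 of 4 CKO and 4 of 7 WT mice. In WT its difference ran from -1.38 to 4.25, and its mean per mouse of 0.08 had the opposite sign to the fitted -0.26 ± 0.44. Cfd (0.22 per mouse, -0.22 fitted) and Cidec (0.13 per mouse, -0.28 fitted) likewise changed sign in WT. WT mouse 699 held the top value for each of these, 4.25, 4.62 and 4.48. In CKO mice, leaving out mouse 698 took the fitted changes of Plin1, Fabp4 and Cidec to 0.09, 0.07 and 0.05, against -0.46, -0.19 and -0.44 with it, and that of Adipoq to -0.08. Lpl was highest without mouse 688, at 0.84, against 0.49 with all mice. It was lowest at 0.05, with the mouse as a block and the muscle and marrow scores as covariates. Car3 stood at -0.01 without the non-loaded library of mouse 691. With the mouse as a block, 0 of the 10 genes were called in CKO and in WT.

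**Figure D2:**
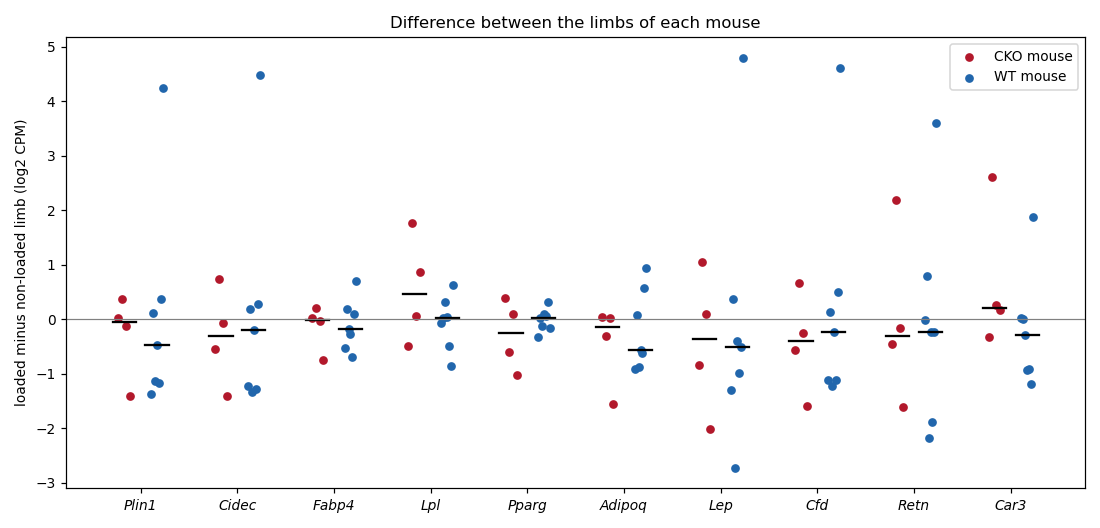
Loaded minus non-loaded log2 CPM (vertical axis) of each adipocyte gene in each CKO mouse (red, left) and WT mouse (blue, right); the black line is the median. Differences lie on both sides of 0 for every gene in both genotypes, and WT mouse 699 is the blue dot above 3 for Plin1, Cidec, Lep, Cfd and Retn.

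Genotype was compared within each limb, and the loading responses were compared between genotypes. None of the 10 genes was called in loaded ulnae, in non-loaded ulnae or in the difference of the loading effects, where edgeR called 0%, 0% and 0% of all genes. In each, 0 of the 10 had an unadjusted p under 0.05, and DESeq2 called 0 of them. In loaded ulnae 8 of 10 lay below 0 (median -0.32, against -0.04 over all genes). Pparg came nearest the threshold there, with 7.26 ± 1.07 CPM in CKO (SD, n = 4) and 9.28 ± 1.66 CPM in WT (SD, n = 7). Its log2 fold change was -0.36 ± 0.18 (edgeR adjusted p = 0.601). Lpl at 0.44 ± 0.27 (adjusted p = 0.601) and Car3 at 0.54 ± 0.40 (adjusted p = 0.635) lay above 0. The muscle genes lay above 0 there too, 20 of 20 with a median of 0.66. With the muscle and marrow scores as covariates Car3 stood at -0.08 ± 0.17, Lpl at 0.10 ± 0.11 and Pparg at -0.22 ± 0.15. In non-loaded ulnae 8 of 10 lay below 0, with a median of -0.09. For the difference of the loading effects Adipoq stood at -0.24 ± 0.41, Lpl at 0.59 ± 0.38 and Car3 at 0.65 ± 0.58, with adjusted p = 0.812, 0.697 and 0.697. In each of the 40 comparisons of 2 groups checked, CKO or loaded against its counterpart, the groups overlapped. The same check was not made over all genes, so nothing particular to these genes is read from it.

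WT non-loaded 699 stood apart from the other 21 libraries in these genes. Its Plin1 level of 1.32 CPM compared with 8.24 to 46.8 CPM elsewhere, and Cidec at 0.94 CPM with 11.5 to 36 CPM. Cfd had 5.43 CPM against 44 to 247 CPM, and Lep 0.0696 CPM against 0.346 to 8.07 CPM. It was the lowest library for 7 of the 10 genes, against 10.8% of all genes tested. Adipoq was less far down, at 16.9 CPM with the next library at 17.4 CPM, and so was Fabp4, at 50.3 CPM with the next at 51.3 CPM. Pparg did not follow: at 10.6 CPM it ranked 18th of 22 from the lowest. The ratio of Plin1 to Adipoq was 0.0782 in this library and 0.388 to 0.911 in the others. Some lipid genes singled out after their values were seen did not go together there. Plin2, which coats droplets in many cell types, had 70.6 CPM against 34.7 to 66.3 CPM, and G0s2, an inhibitor of the main triglyceride lipase, had 17.7 CPM against 5.63 to 11.3 CPM. All 15 neutrophil genes were highest of 22 in WT non-loaded 699, against 14.1% of all genes tested. Of the other marrow genes, 0 of 15 red cell and 0 of 14 B cell genes were. Pck1, which supplies glycerol for triglyceride in fat cells, had 0.452 CPM against 3.26 to 35.9 CPM, and Scd1, a fatty acid desaturase, 67.5 CPM against 153 to 1120 CPM. The part of muscle and marrow in these levels was not tested. In CKO non-loaded 691 the lowest values of 22 were those of Lpl, at 137 CPM, and Car3, at 201 CPM, 2 of the 10 genes, against 20.3% of all genes tested, while Adipoq at 33.5 CPM lay above the median. All 20 muscle genes were lowest of 22 in that library. Highest of 22 in it were 0 of 15 neutrophil, 4 of 15 red cell and 3 of 14 B cell genes, against 14.7% of all genes tested.

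The adipocyte genes followed one another across libraries to different degrees. Correlations of log2 CPM are given as descriptions: the libraries share scaling, and the limbs of a mouse are not independent. Over 22 libraries Pearson's r was 0.975 between Plin1 and Cfd, 0.966 between Cfd and Cidec and 0.957 between Plin1 and Cidec. Without CKO non-loaded 691 and WT non-loaded 699 these were 0.92, 0.883 and 0.862 over 20 libraries. For Adipoq and Plin1 r was 0.785 over 22 and 0.906 over 20 libraries, and for Adipoq and Pparg 0.587 and 0.774. Over 20 libraries r was 0.9 between Adipoq and Cfd, 0.896 between Plin1 and Fabp4 and 0.895 between Adipoq and Fabp4. Over 22 libraries these were 0.768, 0.816 and 0.838. Cidec was thus no longer in the closest group over 20 libraries. Lpl and Car3 had r of 0.841 to each other over 22 libraries and 0.579 over 20. Car3 followed Retn (0.725), Cidec (0.592), Cfd (0.574), Plin1 (0.564) and Fabp4 (0.527) more than Adipoq (0.189) over 22 libraries. Over 20 libraries its r to Retn was 0.414, and to Cidec, Cfd, Plin1 and Fabp4 it was 0.196, 0.142, 0.193 and 0.143. Lpl had r of -0.0984 to Adipoq over 22 libraries and -0.466 over 20. Pparg ran opposite to Lpl, with r = -0.677, and was near 0 with Cidec (0.0364) and Retn (0.0353) over 22 libraries, but at 0.612 and 0.428 over 20.

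Ranked by r to Adipoq among all genes tested, Fabp4 came 5th, Plin1 9th, Cfd 14th and Lep 21st. Cidec came 93rd, Retn 194th and Pparg 325th, while Car3 ranked 5349th and Lpl 11309th. Without CKO non-loaded 691 and WT non-loaded 699 the order was Plin1 2nd, Cfd 3rd, Fabp4 4th, Cidec 22nd, Pparg 25th, Lep 86th, Retn 243rd, Car3 8949th and Lpl 17028th. Among named genes of at least 1 CPM the nearest to Adipoq were Mrap (r = 0.892), which encodes a partner of melanocortin receptors, Serpina3c (0.889), a serine protease inhibitor gene, and Scd1 (0.856). Then came Fabp4 (0.838), Negr1 (0.824), a cell adhesion gene, Trf (0.813), which encodes the iron carrier transferrin, Plin1 (0.785), Klhdc7a (0.775), Ifi27l2a (0.771) and Il7 (0.768), which encodes the cytokine interleukin 7.

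**Figure D3:**
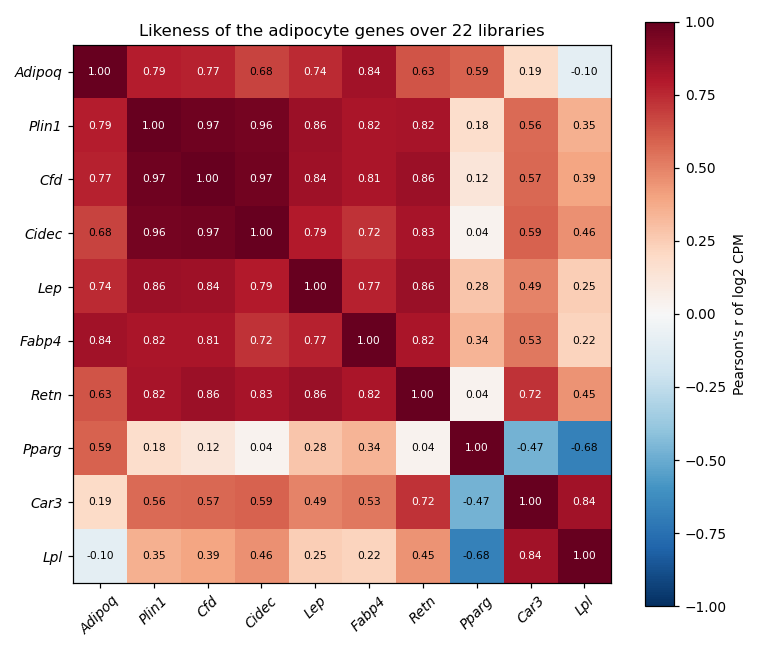
Pearson's r of log2 CPM between each pair of adipocyte genes over 22 libraries (colour and printed value). Over these libraries Plin1, Cfd and Cidec form the closest group (0.957 to 0.975), Car3 and Lpl pair with each other (0.841), and Pparg runs against Lpl (-0.677). Without CKO non-loaded 691 and WT non-loaded 699, Plin1 with Cidec fell to 0.862, below Adipoq with Plin1 at 0.906. Car3 with Lpl fell to 0.579.

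The relation to muscle and marrow was tested as a slope of log2 CPM on each score, beside the 4 group means, in edgeR. Such slopes were common over all genes: 26.6% had a called positive and 26.6% a called negative slope on the muscle score, and 25.2% and 27.1% on the marrow score. Against that background 2 of 10 adipocyte genes had a called positive slope on muscle and 1 a negative one. Car3 rose by 1.02 ± 0.10 log2 units per unit of muscle score (SE, adjusted p = 4.06e-08) and Lpl by 0.59 ± 0.07 (adjusted p = 1.15e-06). Both were called in all 17 other settings tried. Pparg fell by 0.24 ± 0.08 per unit (adjusted p = 0.0112). Its call was lost without CKO mouse 688 (adjusted p = 0.064), without mice 686 and 688 (0.0829), without the non-loaded libraries of mice 691 and 699 (0.068), and with both scores in 1 fit (0.536).

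The other 7 were not called. Adipoq had a slope of -0.06 ± 0.16 (adjusted p = 0.777), Plin1 0.23 ± 0.30 (0.538), Cidec 0.35 ± 0.27 (0.283), Cfd 0.32 ± 0.32 (0.426), Lep 0.49 ± 0.44 (0.368) and Fabp4 0.16 ± 0.10 (0.197). Retn at 0.83 ± 0.36 came nearest (adjusted p = 0.055). It was called in 3 of 17 other settings, without WT mouse 687 (adjusted p = 0.0213), WT mouse 694 (0.039) or CKO mouse 693 (0.0418). Without the non-loaded libraries of mice 691 and 699 the slopes of Plin1, Cidec, Cfd, Lep and Fabp4 turned negative, at -0.53, -0.25, -0.46, -0.25 and -0.17, Adipoq stood at -0.59 (adjusted p = 0.0539) and Retn at 0.003 (adjusted p = 0.997).

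**Figure D4:**
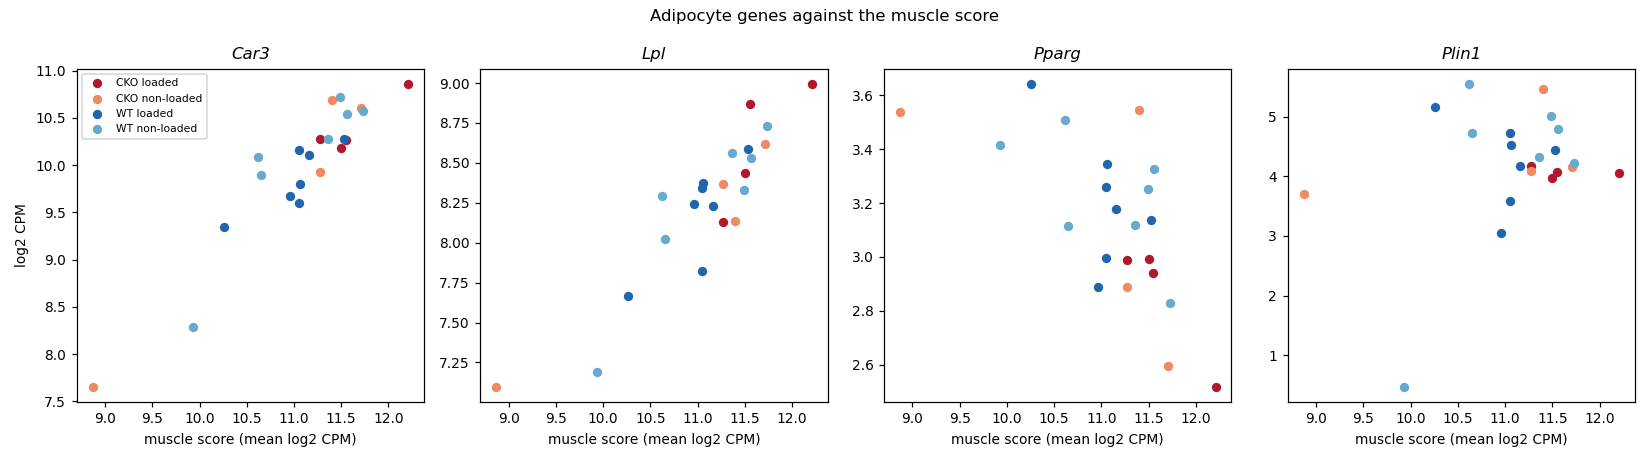
Log2 CPM (vertical axis) against the muscle score (horizontal axis, mean log2 CPM of 20 muscle genes) in the 22 libraries, coloured by group, for Car3, Lpl, Pparg and Plin1. Car3 and Lpl climb with the score, Pparg declines, and Plin1 shows no steady trend apart from the low library WT non-loaded 699.

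On the marrow score the same 3 genes were called, each with the opposite sign. Lpl had a slope of -0.77 ± 0.10 (adjusted p = 5.06e-06), Car3 -1.10 ± 0.21 (adjusted p = 0.000226) and Pparg 0.32 ± 0.10 (adjusted p = 0.0123). The scores ran against each other across libraries. With both in 1 fit the marrow slopes of Lpl (-0.40, adjusted p = 0.0747), Car3 (-0.20, adjusted p = 0.588) and Pparg (0.17, adjusted p = 0.597) were not called, while the muscle slopes of Car3 (0.91, adjusted p = 0.000262) and Lpl (0.35, adjusted p = 0.0207) were. Pparg also missed the threshold on marrow without CKO mouse 688 (adjusted p = 0.0797), without mice 686 and 688 (0.0966) and without the non-loaded libraries of mice 691 and 699 (0.0802). The 7 other genes were not called on marrow, with slopes from -0.90 ± 0.47 for Retn (adjusted p = 0.113) to -0.08 ± 0.22 for Adipoq (adjusted p = 0.788). In 1 of 17 other settings each, Cidec was called without WT mouse 694 (adjusted p = 0.0418) and Retn without CKO mouse 698 (adjusted p = 0.0474).

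**Figure D5:**
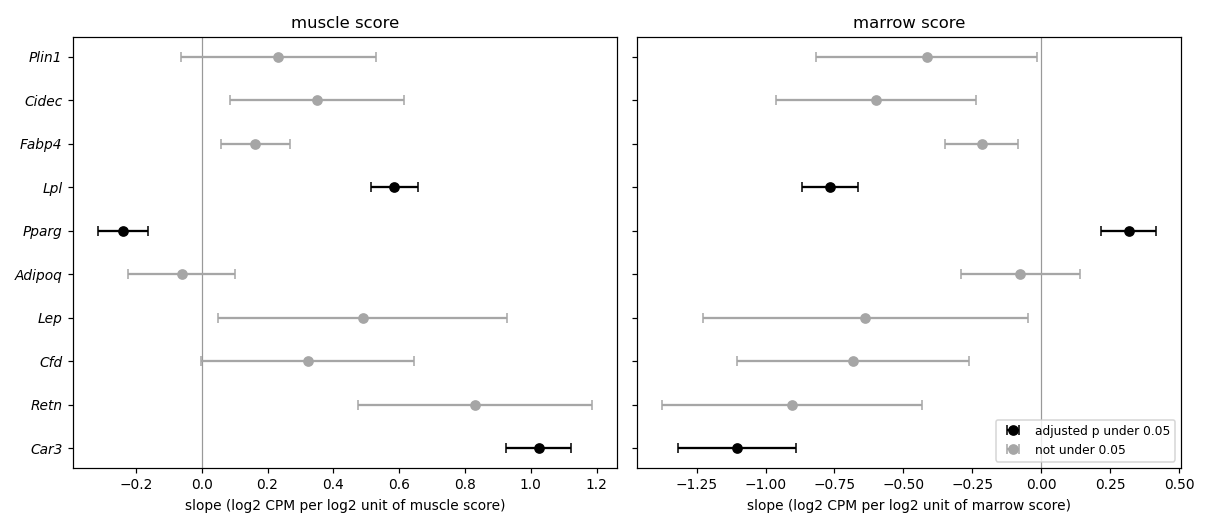
Slope of log2 CPM per unit of the muscle score (left) and the marrow score (right) for each adipocyte gene, with bars of 1 SE; black marks have an adjusted p under 0.05. Car3 and Lpl lie right of 0 for muscle and left of 0 for marrow, and Pparg the reverse.

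Wider lists of fat-cell biology showed no loading or genotype calls: edgeR called 0 genes of these lists in any of the 5 contrasts, and 0 to 2 genes a list had an unadjusted p under 0.05 in a contrast. On the muscle score, against the shares of 26.6% of all genes called positive and 26.6% called negative, 7 of 12 adipogenic factor genes had called positive slopes and 1 a negative one. Rxra, the partner of the Pparg receptor, had 0.37 ± 0.04 (adjusted p = 3.13e-07), and Lpin1, a phosphatidate phosphatase of triglyceride synthesis, 0.74 ± 0.07 (adjusted p = 5.25e-08). Of 10 fatty acid uptake genes 7 were called up and 1 down. Slc2a4, the insulin-responsive glucose transporter of fat and muscle, had 0.83 ± 0.06 (adjusted p = 8.97e-10) and Cd36, a fatty acid carrier, 0.35 ± 0.06 (adjusted p = 5.87e-05). Of 14 lipolysis and droplet genes 6 were called up and 2 down, Plin4 at 0.72 ± 0.13 (adjusted p = 8.99e-05) and Pnpla2, the main triglyceride lipase, at 0.37 ± 0.05 (adjusted p = 3.7e-06) among those that rose. Of 12 lipogenesis genes 3 were called up and 4 down, near the shares over all genes: Gpam, which starts glycerolipid synthesis, had 0.63 ± 0.07 (adjusted p = 1.34e-07), whereas Scd1, the most abundant, was not called at 0.11 ± 0.27 (adjusted p = 0.763).

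Of 10 genes listed for brown and beige fat 8 were tested and 7 of them called up, against 26.6% of all genes. Ucp1, the defining gene of that list, was not among the genes given, where the lowest total over the libraries was 10 counts. Elovl3 did not pass the filter. Whether these slopes came from fat cells or from muscle was not tested. Among the 7 were Cox8b at 0.91 ± 0.05 (adjusted p = 1.13e-11) and Ppargc1a, a driver of mitochondrial genes, at 0.85 ± 0.09 (adjusted p = 2.87e-07). Of 10 adipokine and receptor genes 5 were called up and 0 down, with the adiponectin receptor genes Adipor1 at 0.03 ± 0.05 (adjusted p = 0.718) and Adipor2 at 0.12 ± 0.04 (adjusted p = 0.0212). Of 10 preadipocyte genes 5 were called up and 3 down. Pdgfra, a marker of fibro-adipogenic progenitors, had 0.41 ± 0.09 (adjusted p = 0.000619) and Fap 0.22 ± 0.19 (adjusted p = 0.36). Of 10 marrow stromal genes 4 were called down and 0 up, against 26.6% of all genes in each direction: Vcam1 had -0.60 ± 0.10 (adjusted p = 2.71e-05) and Cxcl12, a chemokine that holds blood stem cells in the marrow, -0.36 ± 0.11 (adjusted p = 0.00712).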

How the data were processed

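Each library came as 1 deposited table of expected counts by gene, made by the authors. The submitters' processing notes name STAR, RSEM and GRCm38, and no versions are stated in the sources used here. Per the labels' protocols RNA came from ulnae milled in Trizol, and 4 ng of it went into each stranded library. The estimated counts were whole, so rounding changed 0 values. Genes were matched to symbols by Ensembl identifier (25428 of 25471), with coordinates from GENCODE M21. edgeR 4.0.16 (R 4.3.3, limma 3.58.1) with filterByExpr, TMM and the robust quasi-likelihood test was fitted in 1 model over all 22 libraries with a mean for each of 4 groups (18 residual degrees of freedom), with Benjamini-Hochberg adjustment over 18793 genes at 0.05. Standard errors are the log2 fold change divided by the root of F. CPM on the log2 scale used a prior count of 2. Libraries held 21999891 to 42833729 counts. Libraries of a group differed from each other beyond counting noise (chi-square per gene 26.3 to 521 over 54 pairs). Both limbs of a mouse number belong to 1 animal, which pairs them; their deviations from group means correlated at -0.256 to 0.415 (median 0.189), over 0.1 in 7 of 11 mice. P-values of the model with 4 group means measure the spread between libraries within groups. That model treats the limbs of a mouse as independent.

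Alternatives were the mouse as a block, median-ratio scaling, no count filter, DESeq2 1.42.0, muscle and marrow covariates, and leaving out mice or libraries. Named genes were the 10 members, the 2 most abundant of each wider list with no call in a contrast, and the 10 named genes nearest Adipoq. Members and lists were chosen with earlier results of these data known. Fits were also run on simulated data, but the outcome is not given here, so nothing about these results is read from it.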

Additional observations from a re-analysis of the deposited data

Results flagged for a closer look

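Single libraries were marked in 10 of 40 gene and group combinations, by the gap to the next library relative to the range of the group. Each combination was read for its highest and lowest library. A rate of about 1 in 20 by chance assumes unrelated combinations. These share libraries and genes that go together, so 10 of 40 is not compared with it. Marks are relative to the group: Cidec in CKO loaded 691 lay near its median of 19.6 CPM over 22 libraries. 5 of the 10 involved the non-loaded ulna of WT mouse 699. There Plin1 was at 1.32 CPM, Cidec at 0.94, Cfd at 5.43, Retn at 0.487 and Car3 at 311 CPM, each below the other 6 WT non-loaded ulnae. In CKO loaded ulnae, mouse 698 was high for Car3 at 1860 CPM and low for Pparg at 5.67 CPM, mouse 691 was high for Cidec at 19.3 CPM, and mouse 693 was low for Retn at 1.56 CPM. In WT loaded ulnae, mouse 692 was low for Fabp4 at 51.3 CPM. Mouse 698 also had the highest muscle score of 22, at 12.21, and its part in these values was not tested.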

How the results depend on the processing

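No adipocyte gene passed the threshold for loading or genotype under any setting tried, and in loaded ulnae CKO against WT kept its sign in every setting but 1 (Car3, with the scores as covariates). The alternatives chosen after the data were seen left out each library in turn, mice 686 and 688 together, or the non-loaded libraries of mice 691 and 699. Median-ratio scaling and no count filter changed no sign or call of a member. Below, values after a gene are log2 fold changes or slopes that took the opposite sign, or, where a mouse or library was left out, the ends of a range that crossed 0, and the other values are counts of called genes over all genes. The cause was not tested. With the mouse as a replicate block, the values were 5 called genes for loading in CKO, 2 called genes for loading in WT, Retn at 0.046 for the difference of the loading effects, Adipoq at 0.019 for the marrow slope. With DESeq2, the values were 22 called genes for loading in CKO, 11 called genes for loading in WT, 2 called genes for genotype in non-loaded ulnae. With muscle and marrow scores as covariates, the values were Car3 at -0.163 and 1 called gene for loading in CKO, Cfd at 0.138, Lpl at 0.053 and 6 called genes for loading in WT, Car3 at -0.028 for the difference of the loading effects, Adipoq at 0.077, Plin1 at 0.1, Cfd at 0.304, Cidec at 0.091 and Lpl at 0.055 for genotype in non-loaded ulnae, Car3 at -0.077 for genotype in loaded ulnae. With a mouse block plus the 2 covariates, the values were Car3 at -0.132 for loading in CKO, Plin1 at 0.113, Lep at 0.027, Cfd at 0.305, Retn at 0.014, Cidec at 0.168, Lpl at 0.026 and 16 called genes for loading in WT, Car3 at -0.007 for the difference of the loading effects. Without mice 686 and 688, the values were 0 called genes for loading in CKO, Adipoq at 0.032, Retn at -0.016, Pparg at 0.097 and 1 called gene for genotype in non-loaded ulnae, 1 called gene for genotype in loaded ulnae. Without the non-loaded libraries of mice 691 and 699, the values were 2 called genes for loading in WT, Car3 at 0.064 for genotype in non-loaded ulnae, Plin1 at -0.525, Lep at -0.253, Fabp4 at -0.174, Cfd at -0.464, Cidec at -0.25 and 5187 called genes for the muscle slope, Adipoq at 0.289, Plin1 at 0.31, Lep at 0.129, Fabp4 at 0.073, Cfd at 0.058, Cidec at 0.098 and 4175 called genes for the marrow slope. With both scores in 1 fit, the values were Cfd at -0.076 and 2204 called genes for the muscle slope, 881 called genes and 0 of the 10 called for the marrow slope. Without WT mouse 699, the values were 5 called genes for loading in CKO, Plin1 at -0.531, Cfd at -0.502 and Retn at -0.497 for loading in WT, Plin1 at -0.02 for the muscle slope, Adipoq at 0.221 and Plin1 at 0.12 for the marrow slope. Without WT mouse 685, the values were Plin1 at 0.003, Pparg at 0.04 and 0 called genes for loading in WT, Plin1 at -0.453 for the difference of the loading effects, 0 called genes for genotype in non-loaded ulnae. Without the WT non-loaded library of mouse 685, the values were Cfd at 0.043 for loading in WT, Adipoq at -0.453 for the difference of the loading effects, Adipoq at 0.176, Plin1 at 0.125 and Cfd at 0.189 for genotype in non-loaded ulnae. Without WT mouse 687, the values were Retn at 0.078 for loading in WT. Without the WT loaded library of mouse 694, the values were Pparg at -0.103 for loading in WT. Without the WT non-loaded library of mouse 699, the values were Lpl at -0.216 for loading in WT. Without WT mouse 694, the values were Lpl at 0.017 for loading in WT, Adipoq at 0.021 and Plin1 at 0.392 for the muscle slope, Adipoq at -0.272 and Plin1 at -0.961 for the marrow slope. Without the CKO non-loaded library of mouse 691, the values were Plin1 at -0.647, Fabp4 at -0.318 and Car3 at -0.009 for loading in CKO, 4 called genes for loading in WT, Fabp4 at -0.203 for the difference of the loading effects, Retn at 0.454 and Cidec at 0.005 for genotype in non-loaded ulnae. Without CKO mouse 698, the values were Plin1 at 0.091, Fabp4 at 0.066 and Cidec at 0.048 for loading in CKO, Adipoq at 0.181, Plin1 at 0.353, Fabp4 at 0.185 and Cidec at 0.333 for the difference of the loading effects, Adipoq at -0.329, Plin1 at -0.653, Lep at -0.986, Cfd at -0.724, Retn at -0.989, Pparg at -0.186, Cidec at -0.641 and Car3 at -0.394 for genotype in non-loaded ulnae. Without CKO mouse 691, the values were Lep at -1.496, Retn at -1.08 and Cidec at -0.784 for loading in CKO, Lep at -1.173, Cfd at -0.765, Retn at -0.859 and Cidec at -0.509 for the difference of the loading effects, Lpl at 0.078 and Car3 at 0.234 for genotype in non-loaded ulnae, Adipoq at -0.234 for the muscle slope. Without the CKO non-loaded library of mouse 698, the values were Lep at 0.125 and Retn at 0.42 for loading in CKO, Lep at 0.453, Cfd at 0.196 and Retn at 0.646 for the difference of the loading effects. Without CKO mouse 688, the values were Car3 at 0.6 and 0 called genes for loading in CKO, Lpl at -0.354 for genotype in non-loaded ulnae. Without the CKO non-loaded library of mouse 693, the values were Lep at 0.448 for genotype in non-loaded ulnae. Without the CKO non-loaded library of mouse 688, the values were Pparg at 0.112 for genotype in non-loaded ulnae. Without WT mouse 686, the values were 1 called gene for genotype in non-loaded ulnae. The block changed no call of a member. Standard errors limit what loading changes could be called in 4 CKO mice. They were 0.55 to 0.61 log2 units for Cidec, Plin1 and Cfd, 0.72 for Retn and 0.89 for Lep. Lep had the lowest counts.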
